A study of Mus musculus with 32 samples.

Results

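The distal microRNA cluster of the Dlk1-Dio3 imprinted region, from Mir379 to Mir410, was described here as all mature arms of 34 named miRNAs, taken by name whatever their level. The small RNA table held rows for 34 of these 34 miRNAs, as 65 arms of 870 in all. Small RNA libraries had been made from the mesenteric arteries of male mice, the resistance vessels that supply the gut. ieET-1 mice overexpress endothelin-1, a vasoconstrictor peptide made by endothelium. ieCre control mice carry the Cre recombinase that tamoxifen switches on, driven by the Tie2 promoter of endothelial cells. Every mouse, controls included, received tamoxifen subcutaneously at 1 mg/kg/day for 5 days at an age of 10 to 12 weeks. Mice were killed 3 months later (long term) or 16 days later (short term), so that time after tamoxifen and age cannot be told apart. The libraries analysed were 8 ieET-1 and 7 ieCre at long term, and 8 ieET-1 and 7 ieCre at short term, each under a different animal number.

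The region carries paternally expressed protein-coding genes and maternally expressed noncoding RNAs, among them Meg3, Rian and Mirg, which lie along 1 strand. The clustered miRNAs are cut from the maternally expressed transcripts, are abundant in the embryo, placenta and brain, and are generally lower in adult tissues. A mature miRNA recognises target mRNAs mainly through its seed, bases 2 to 8 from its 5′ end. In mouse hindlimb ischemia, blocking cluster members such as miR-329, miR-494, miR-495 or miR-487b is known to increase the growth of new vessels.

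The 34 precursors lay on chromosome 12, at chr12:109709060-109743795 in GRCm38, a stretch of 34.7 kb. Of these, 33 were on the plus strand, and Mir299b, which overlaps Mir299a, was on the minus strand. The annotation placed 12 precursors inside the noncoding gene Mirg, 8 of them overlapping an exon and 4 in an intron. The other 22 lay upstream of Mirg and outside any other annotated host gene. RefSeq (GRCm38.p6) gave a mature sequence for 61 of the 65 arms.

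The first set of mature sequences shows the 7 arms with a mean level of at least 10, which held most of the cluster's reads. Seed bases are in capitals, sequences run 5′ to 3′ and come from RefSeq.
miR-411-5p, chr12:109710190-109710210, plus strand: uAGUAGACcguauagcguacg
miR-541-5p, chr12:109742422-109742446, plus strand: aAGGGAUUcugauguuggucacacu
miR-410-3p, chr12:109743764-109743784, plus strand: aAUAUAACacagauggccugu
miR-381-3p, chr12:109726870-109726891, plus strand: uAUACAAGggcaagcucucugu
miR-379-5p, chr12:109709065-109709085, plus strand: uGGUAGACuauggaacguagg
miR-300-3p, chr12:109724363-109724384, plus strand: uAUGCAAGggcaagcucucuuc
miR-409-3p, chr12:109743204-109743225, plus strand: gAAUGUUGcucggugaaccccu

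The second set shows arms of lower level whose change between long and short term passed the test.
miR-379-3p, chr12:109709102-109709123, plus strand: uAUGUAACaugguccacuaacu
miR-411-3p, chr12:109710225-109710246, plus strand: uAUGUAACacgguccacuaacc
miR-329-5p, chr12:109713503-109713524, plus strand: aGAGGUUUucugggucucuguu
miR-667-3p, chr12:109720061-109720083, plus strand: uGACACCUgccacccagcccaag
miR-668-3p, chr12:109734774-109734797, plus strand: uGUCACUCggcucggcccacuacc
miR-485-3p, chr12:109734946-109734967, plus strand: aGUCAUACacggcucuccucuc
miR-154-5p, chr12:109738438-109738459, plus strand: uAGGUUAUccguguugccuucg

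Members of the cluster resemble each other in parts. miR-379-3p and miR-411-3p share the seed AUGUAAC and differ at 2 of 22 bases. miR-300-3p and miR-381-3p differ at 3 of 22 bases, and their seeds are not the same. The seed GGUAGAC of miR-379-5p is shared with miR-1193-5p, and the 5p arms of miR-376b and miR-376c share a seed and differ at 1 of 22 bases. miR-299a-3p and miR-299b-3p are identical over 18 bases, and their rows had 2372 and 2350 reads, so their reads cannot be told apart. Most of the 61 sequences had a seed that no other cluster arm had, and the seed of miR-410-3p, AUAUAAC, was also that of 2 rows outside the cluster, miR-344d-3p and miR-344e-3p.

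The deposited level is a normalized signal, the authors' read count divided by a library size of their choosing. Whole reads could be recovered from it, and 1 read was worth 0.0178 to 0.48 units of signal. Recovered miRNA reads ranged from 3914624 to 31666722 in ieET-1 long-term libraries, from 3697246 to 20243734 in ieCre long-term libraries, from 11914184 to 35531345 in ieET-1 short-term libraries and from 1820166 to 31655543 in ieCre short-term libraries. The libraries ieET-1 short-term 258 and ieCre short-term 8 had almost the same profile (r = 0.9999 on the log2 scale, against 0.996 for the next closest of 435 pairs). Of 537 arms with at least 10 reads in this pair, 381 had more reads in ieCre 8 and 156 had equal reads. In ieET-1 258, 0 of these arms had more. The main fits held both libraries, and whether 1 is a copy or a part of the other was not tested. Counts of calls, the cluster's share and signal, and values of several members are also given without both. All 15 long-term mice had label numbers of 8000 or above, whereas 8 of the 15 short-term mice, among them this pair, had numbers below 1000, and values within numbers of 8000 or above are also given for the cluster and for the members called. The defining miRNAs of artery were present in every group. The summed signal of miR-143 and miR-145, abundant in vascular smooth muscle, was 195656 to 2254716 over the 30 libraries, and that of endothelial miRNAs such as miR-126 was 5538 to 38740. The RNA is from whole tissue, in which fewer cells of a type and less RNA per cell cannot be told apart.

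The cluster was a low but readily counted part of the arterial miRNA population. Of the 65 arms, 13 had a read in every library, 14 had a read in 10 libraries or fewer, and 0 had none in any library. A mean signal of at least 100 was reached by 2 arms, 10 to 100 by 5, 1 to 10 by 14 and less than 1 by 44. As a mean over libraries, miR-411-5p and miR-541-5p together held 69.8% of a library's cluster reads, and the 5 highest arms held 89.3%. miR-411-5p, at a mean of 394 ± 167 (SD, n = 30), ranked 52 in the table of 870 arms, and miR-541-5p, at 155 ± 105, ranked 74. The next 5 were miR-410-3p at 69.2, miR-381-3p at 47.5, miR-379-5p at 26.8, miR-300-3p at 20.2 and miR-409-3p at 13.7. The ranges over libraries of each of these 7 arms and the next in this order overlapped. miR-299a-3p, miR-299b-3p and miR-411-3p followed at 4.41, 4.34 and 4.17.

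**Figure D1:**
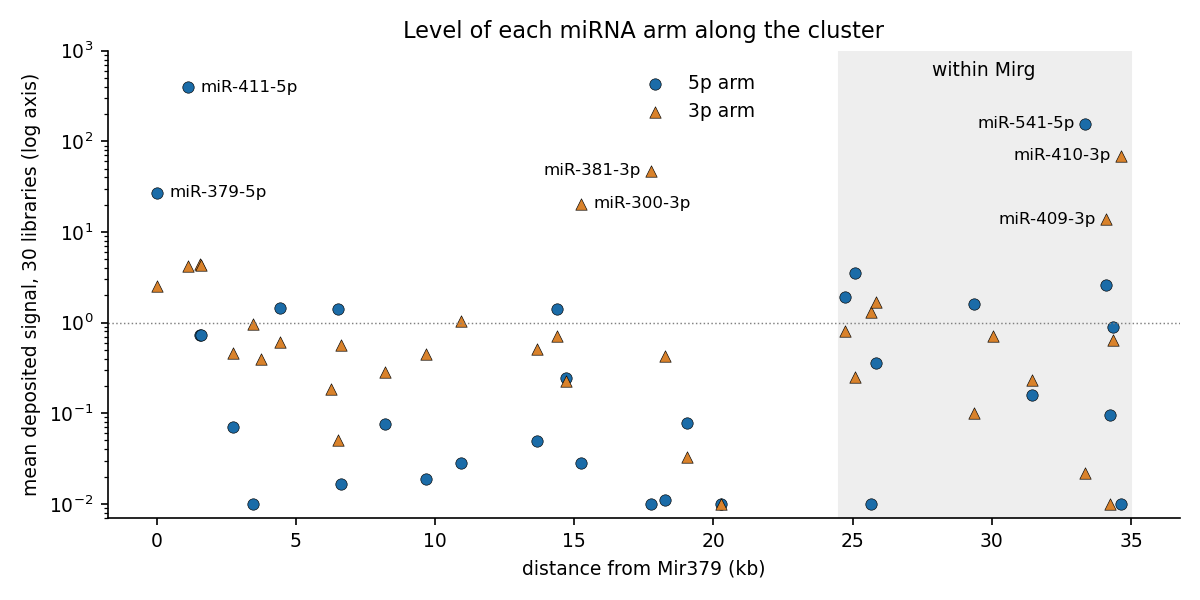
Mean deposited signal of each of the 65 arms over 30 libraries (log axis; arms below 0.01 are drawn at 0.01) against the distance of its precursor from Mir379 in kb. Circles are 5p arms, triangles are 3p arms, the shaded stretch is Mirg and the dotted line is a signal of 1; the highest arms, miR-411-5p at 394 and miR-541-5p at 155, lie near opposite ends.

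High arms were not gathered at 1 place. The shares of cluster reads that follow are means over libraries. The first 6 kb from Mir379, with 15 arms, held 56.9% of cluster reads, largely those of miR-411-5p. The stretch within Mirg, with 23 arms, held 32.8%, largely those of miR-541-5p and miR-410-3p. The 27 arms between them held 10.3%, of which miR-381-3p and miR-300-3p were the main ones. Levels of neighbouring precursors differed widely. Mir410 gave 42951 reads of its 3p arm over all libraries, while Mir412, less than 1 kb away, gave 44 reads of its 5p arm and 4 of its 3p arm. Mir544 gave 1 and 2 reads.

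Most precursors gave reads mainly from 1 arm. Of the 31 precursors with a row for each arm, 26 had at least 300 reads; 11 of these had more 5p reads, 15 more 3p reads, and 15 had at least 90% of their reads from 1 arm. The most unequal were Mir410, with 3 5p reads and 42951 3p reads, Mir541, with 125908 5p reads and 15 3p reads, and Mir381, with 7 5p reads and 25005 3p reads. The favoured arm was the higher one in 30 of 30 libraries in all 3. The 5p to 3p ratio could be tested for 7 precursors of the cluster (Mir379, Mir411, Mir299a, Mir299b, Mir376b, Mir382 and Mir409) in a fit of 84 precursors of the whole table. Of these, Mir299a and Mir299b are not independent, with 512 and 511 5p reads and 2372 and 2350 3p reads. With limma and Benjamini-Hochberg adjustment, 0 of 7 changed between genotypes at either time (0% of all 84 precursors lower, 0% higher), between long and short term in ieCre (4.76% of 84 lower, 11.9% higher) or between long and short term in ieET-1 (0% lower, 0% higher), with a smallest adjusted p of 0.461. With no filter on low signal the result differed. Of 31 cluster precursors among 281 in all, 5 were called between long and short term in ieCre, where 9.25% of all 281 were called. These were miR-154, miR-300, miR-376c, miR-541 and miR-668. In ieET-1, 3 were called (miR-300, miR-541 and miR-668, with 2.49% of all), and between genotypes 0 at either time (0%). The lower arm of each of the 5 precursors had 4 to 52 reads over all libraries and a mean signal of 0.00455 to 0.0995. With 1 added to each signal, such an arm adds little, so these calls mostly follow the higher arm and do not show a changed ratio.

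As a share of all miRNA reads, the cluster was 0.036 to 0.0736% in ieET-1 long-term libraries and 0.0103 to 0.0785% in ieCre long-term libraries. At short term it was 0.0553 to 0.207% in ieET-1 libraries and 0.0958 to 0.206% in ieCre libraries. Long-term shares were thus below short-term ones in ieCre without overlap, and overlapped in ieET-1, where the low short-term values came from mice numbered 8000 or above. Within those numbers the mean share was 0.0486% ± 0.0149 (SD, n = 8) at long term and 0.0759% ± 0.0243 (n = 4) at short term in ieET-1, and 0.0442% ± 0.0264 (n = 7) and 0.134% ± 0.0337 (n = 3) in ieCre at those times. The long-term shares were also split by label number without overlap. In ieET-1 long-term libraries they were 0.0661 to 0.0736% in the 2 mice numbered in the 9000s and 0.036 to 0.0573% in the 6 numbered in the 8000s. In ieCre long-term libraries they were 0.0462 to 0.0785% in the 4 of the 9000s and 0.0103 to 0.0274% in the 3 of the 8000s. At short term the ieCre share was 0.145 to 0.160% in the 2 of the 9000s and 0.0958% in the 1 of the 8000s, while no ieET-1 short-term mouse was numbered in the 9000s. Without the near-identical pair, the short-term share was 0.110% ± 0.0538 (n = 7) in ieET-1 and 0.145% ± 0.0408 (n = 6) in ieCre. The share depends on miR-143-3p and miR-10b-5p, which take most reads. With both left out of the total, the mean share was 0.181% in ieET-1 and 0.149% in ieCre at long term, and 0.308% in ieET-1 and 0.388% in ieCre at short term. That share within numbers of 8000 or above was 0.181% ± 0.0529 (n = 8) in ieET-1 and 0.149% ± 0.0614 (n = 7) in ieCre at long term, and 0.217% ± 0.0641 (n = 4) in ieET-1 and 0.257% ± 0.0533 (n = 3) in ieCre at short term. The summed normalized signal of the 65 arms was 540 ± 102 in ieET-1 long-term and 576 ± 177 in ieCre long-term libraries, against 901 ± 165 in ieET-1 short-term and 1087 ± 281 in ieCre short-term libraries (SD, n = 8, 7, 8 and 7). The short-term signal within numbers of 8000 or above was 795 ± 76.4 (n = 4) in ieET-1 and 996 ± 412 (n = 3) in ieCre, and without the pair it was 875 ± 160 (n = 7) in ieET-1 and 1086 ± 308 (n = 6) in ieCre. In ieCre long-term libraries the signal was 615 to 823 in the 9000s and 349 to 448 in the 8000s.

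**Figure D2:**
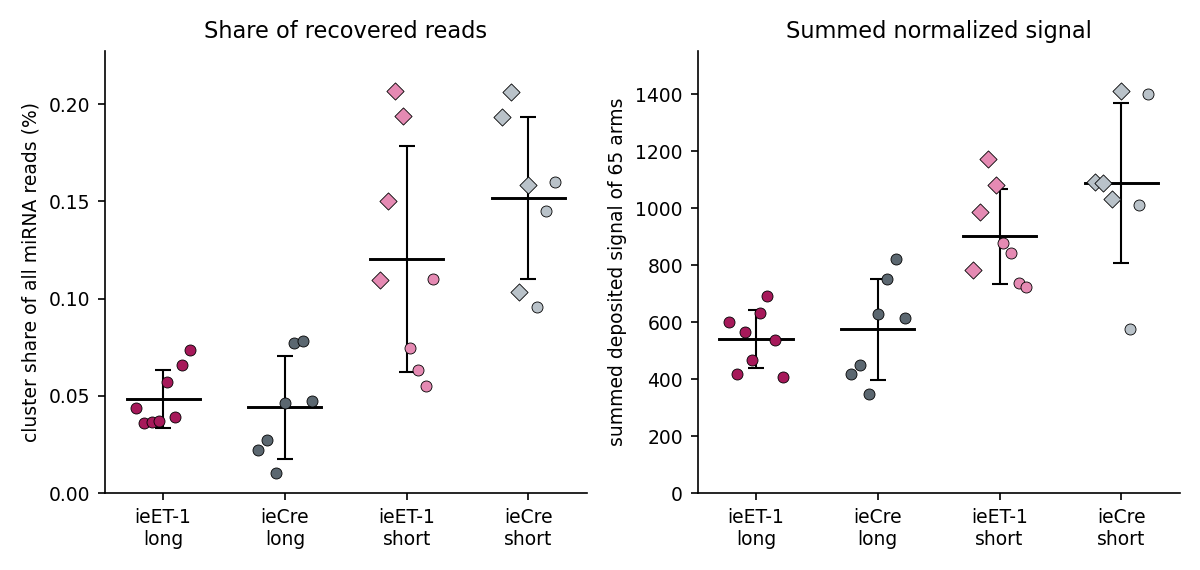
The cluster in each of 30 libraries by group: left, its share of all recovered miRNA reads (%); right, the summed deposited signal of its 65 arms. Each point is a library, diamonds are mice with label numbers below 1000, and lines and bars are mean and SD; long-term groups lie lower in both panels, at mean signals of 540 and 576 against 901 and 1087.

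The comparison of ieET-1 with ieCre mice asked whether endothelin-1 overexpression changed these miRNAs. No member passed the test at either time. None of the genotype comparisons of the whole table gave a call. Low arms were tested where their signal was at least 1 in at least 8 libraries, which kept 27 of the 65 members and 354 of 870 arms. The 27 include the arms of both Mir299a and Mir299b, which are not independent. With limma on log2(signal + 1) and Benjamini-Hochberg adjustment over 354 arms, 0 of 27 members were called at long term and 0 of 27 at short term (0% of all arms tested, lower or higher, at each time). edgeR on the recovered reads also called 0 at each time. At an unadjusted p under 0.05, limma had 0 members at long term and 1 at short term, miR-154-5p. The median log2 difference of the 27 members was -0.05 at long term, where that of all arms tested was -0.01, and -0.09 at short term, where it was -0.04. The short-term genotype values include the near-identical pair, with 1 library in each genotype. The 95% interval lay within 2-fold either way for 24 of 27 members at long term and 21 of 27 at short term. This and the later intervals are for signal + 1. For tested members with a low mean signal, such as miR-376b-3p at 0.72 or miR-668-3p at 1.31, they do not limit the change of the signal itself to 2-fold. The lower the mean signal, the less they limit it, and only 7 arms had a mean of at least 10.

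miR-411-5p, the most abundant member, had 198, 290 and 399 (lowest, median and highest signal) in ieET-1 long-term libraries and 111, 365 and 467 in ieCre long-term libraries. At short term it had 344, 410 and 536 in ieET-1 and 321, 550 and 930 in ieCre. The genotypes overlapped at each time. The members with the smallest p at short term were miR-154-5p, with a log2 difference of -0.53 ± 0.23 (SE), miR-679-5p at -0.54 ± 0.27, miR-411-3p at -0.43 ± 0.25 and miR-300-3p at -0.30 ± 0.19, each with an adjusted p of 0.990. At long term they were miR-376b-3p at 0.41 ± 0.23, miR-409-3p at -0.56 ± 0.37, miR-379-5p at -0.62 ± 0.46 and miR-409-5p at -0.74 ± 0.57, with adjusted p of 0.854 to 0.906.

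The genotype difference at long term was also set against that at short term. With limma 0 of 27 members were called (0% of 354 lower or higher), with 1 at an unadjusted p under 0.05, and edgeR called 0. The intervals were wider, and 13 of 27 lay within 2-fold. The smallest p belonged to miR-154-5p, with a log2 difference of 0.70 ± 0.33 (adjusted p = 0.602), then miR-409-5p at -1.30 ± 0.81, miR-376b-3p at 0.49 ± 0.33 and miR-411-3p at 0.45 ± 0.35. Averaged over both times, limma called 0 of 27 members between genotypes (0% of 354 lower or higher) with 0 at an unadjusted p under 0.05, edgeR called 0, and 26 of 27 intervals lay within 2-fold. The smallest p values there were those of miR-679-5p at -0.32 ± 0.19, miR-379-5p at -0.48 ± 0.32, miR-300-3p at -0.17 ± 0.14 and miR-411-3p at -0.20 ± 0.18.

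Some members of the cluster were lower at long term than at short term, and no member called was higher. In ieCre, 7 of 27 members tested were lower and 0 higher at long term, where limma called 5.65% of all 354 arms lower and 2.26% higher. In ieET-1, 4 of 27 were lower and 0 higher, against 3.95% lower and 1.98% higher over all arms. Averaged over genotypes, 10 of 27 were lower and 0 higher, against 13.6% lower and 8.47% higher. edgeR on the recovered reads called 5 members lower in ieCre (3.95% of all arms lower and 4.52% higher), 4 in ieET-1 (4.52% lower and 6.21% higher) and 11 averaged (12.1% lower and 13.8% higher), with 0 members higher. The median log2 change of the members was -0.51 in ieCre, -0.48 in ieET-1 and -0.40 averaged, against -0.13, -0.09 and -0.09 for all arms tested. These are changes of signal + 1, which are smaller than those of the signal itself in low arms. In edgeR the members' medians were -0.90, -0.56 and -0.80 in the same order, against -0.08, -0.03 and -0.03 for all arms. Of the 27 members tested, 12 passed the filter on low signal only through short-term libraries, so that this count leans towards arms that were lower at long term. Of the members called, 4 in ieCre, 3 in ieET-1 and 6 averaged were among the 15 that passed it in long-term libraries alone. With no filter, all 65 arms were tested, and 9 in ieCre, 4 in ieET-1 and 15 averaged were lower, against 2.64%, 1.38% and 6.78% of all 870 arms lower.

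**Figure D3:**
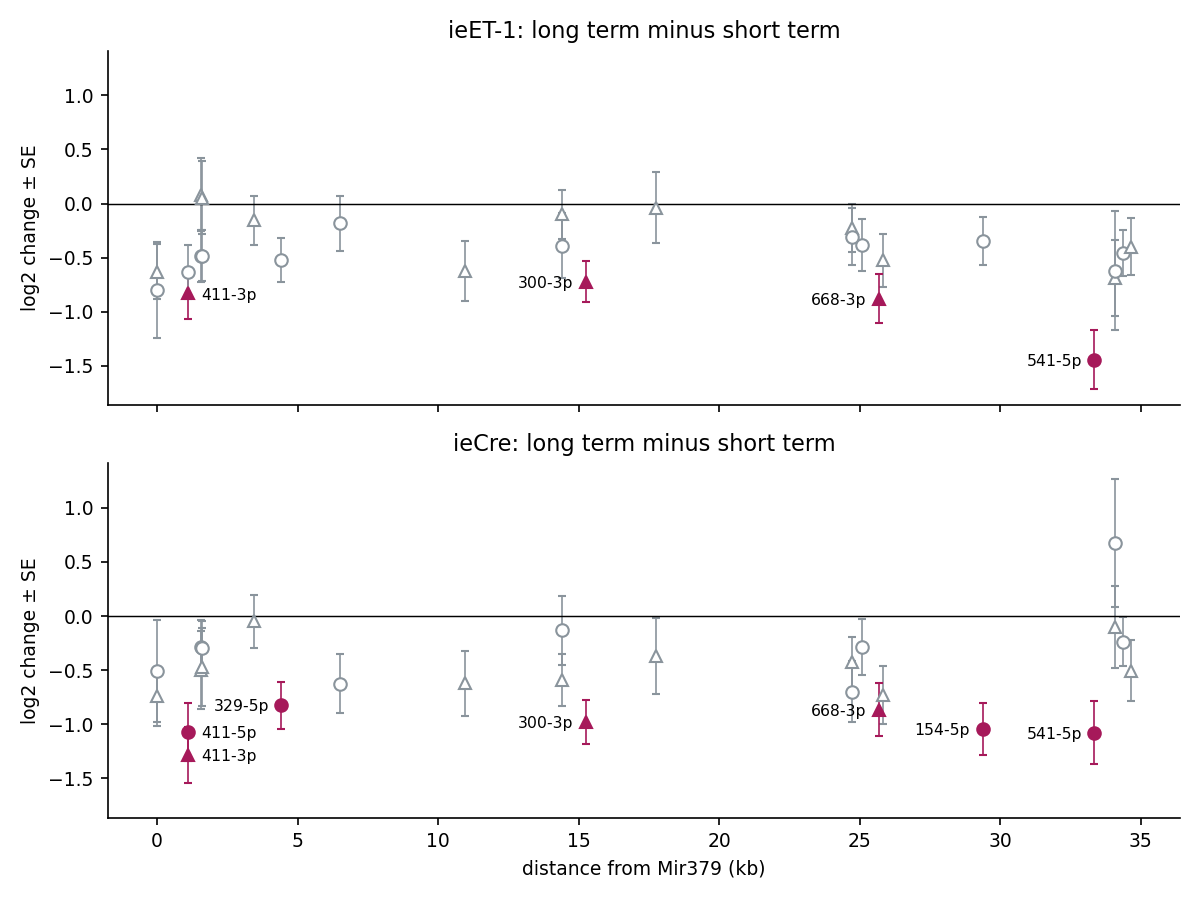
Log2 change (long term minus short term) of signal + 1 with its SE for the members tested, against the distance of the precursor from Mir379 in kb, in ieET-1 (top) and ieCre (bottom). Circles are 5p arms, triangles are 3p arms and filled symbols passed the adjusted p threshold of 0.05; the called arms, 4 in ieET-1 and 7 in ieCre, all lie below 0 and are spread along the cluster.

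With limma on signal + 1, miR-541-5p had the largest decrease among members tested in ieET-1. With DESeq2 on the recovered reads, the largest was that of miR-668-3p, a log2 change of -1.74. The signal of miR-541-5p was 50.3, 76.1 and 103 in ieET-1 long-term libraries, against 103, 231 and 370 in ieET-1 short-term libraries. In ieCre it was 70.3, 90.3 and 132 at long term, against 103, 168 and 461 at short term. In ieET-1, 7 of 8 long-term libraries lay below every short-term library, and in ieCre 5 of 7 did. The log2 change was -1.44 ± 0.27 (SE, adjusted p = 0.00146, limma) in ieET-1 and -1.08 ± 0.29 (adjusted p = 0.0167) in ieCre. Short-term mice numbered below 1000 had 244 to 370 in ieET-1 and 150 to 461 in ieCre, and those numbered 8000 or above had 103 to 217 in ieET-1 and 103 to 185 in ieCre, without overlap in ieET-1. Within numbers of 8000 or above, the changes were -0.87 (adjusted p = 0.113) in ieET-1 and -0.63 (adjusted p = 0.130) in ieCre, where limma called 0% and 5.08% of all arms lower.

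miR-411-5p was lower at long term in ieCre, with a log2 change of -1.07 ± 0.27 (adjusted p = 0.0119, limma), and 3 of 7 long-term libraries lay below every short-term library. These were the 3 long-term ieCre mice numbered in the 8000s, at 111 to 202, while the 4 in the 9000s had 365 to 467, above the lowest short-term ieCre library at 321. In ieET-1 the change of -0.63 ± 0.25 did not pass (adjusted p = 0.140). Within numbers of 8000 or above the changes were -0.54 (adjusted p = 0.535) in ieET-1 and -1.08 (adjusted p = 0.0811) in ieCre. The other arm of this precursor, miR-411-3p, was the smaller product. It had 1.22, 2.38 and 4 in ieET-1 long-term libraries against 3.28, 5.25 and 6.38 in ieET-1 short-term libraries, and 0.631, 1.75 and 5.12 in ieCre long-term libraries against 5.5, 6.82 and 8.66 in ieCre short-term libraries. The ieCre values at the 2 times did not overlap, and at long term they were 1.75 to 5.12 in the 9000s and 0.631 to 1.07 in the 8000s. Its log2 change was -0.83 ± 0.24 (adjusted p = 0.0338) in ieET-1 and -1.28 ± 0.26 (adjusted p = 0.00355) in ieCre, and within numbers of 8000 or above the changes were -0.65 (adjusted p = 0.515) in ieET-1 and -1.22 (adjusted p = 0.0437) in ieCre. miR-379-3p, which shares the seed of miR-411-3p, was lower averaged over genotypes, at -0.69 ± 0.19 (adjusted p = 0.0101). It had 0.565, 1.44 and 4 in ieET-1 long-term libraries against 1.77, 3.04 and 3.86 in ieET-1 short-term libraries, and 0, 1.96 and 3.52 in ieCre long-term libraries against 2.29, 2.95 and 7.31 in ieCre short-term libraries. Its averaged change within numbers of 8000 or above was -0.55 (adjusted p = 0.130).

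miR-300-3p, which lies at 15.3 kb from Mir379, was lower in each genotype. Its signal was 9.72, 13.8 and 17.7 in ieET-1 long-term libraries against 17.9, 24 and 26.9 in ieET-1 short-term libraries, without overlap. In ieCre it was 8.52, 13.8 and 21.2 at long term against 19, 31 and 37 at short term. The log2 changes were -0.72 ± 0.19 (adjusted p = 0.0221) in ieET-1 and -0.98 ± 0.20 (adjusted p = 0.00364) in ieCre. Within numbers of 8000 or above the changes were -0.66 (adjusted p = 0.406) and -0.98 (adjusted p = 0.0303). Its look-alike miR-381-3p had 15, 42.0 and 91.8 in ieET-1 long-term libraries against 22.2, 45.7 and 72.2 in ieET-1 short-term libraries, with a log2 change of -0.04 ± 0.33, and -0.37 ± 0.35 in ieCre.

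**Figure D4:**
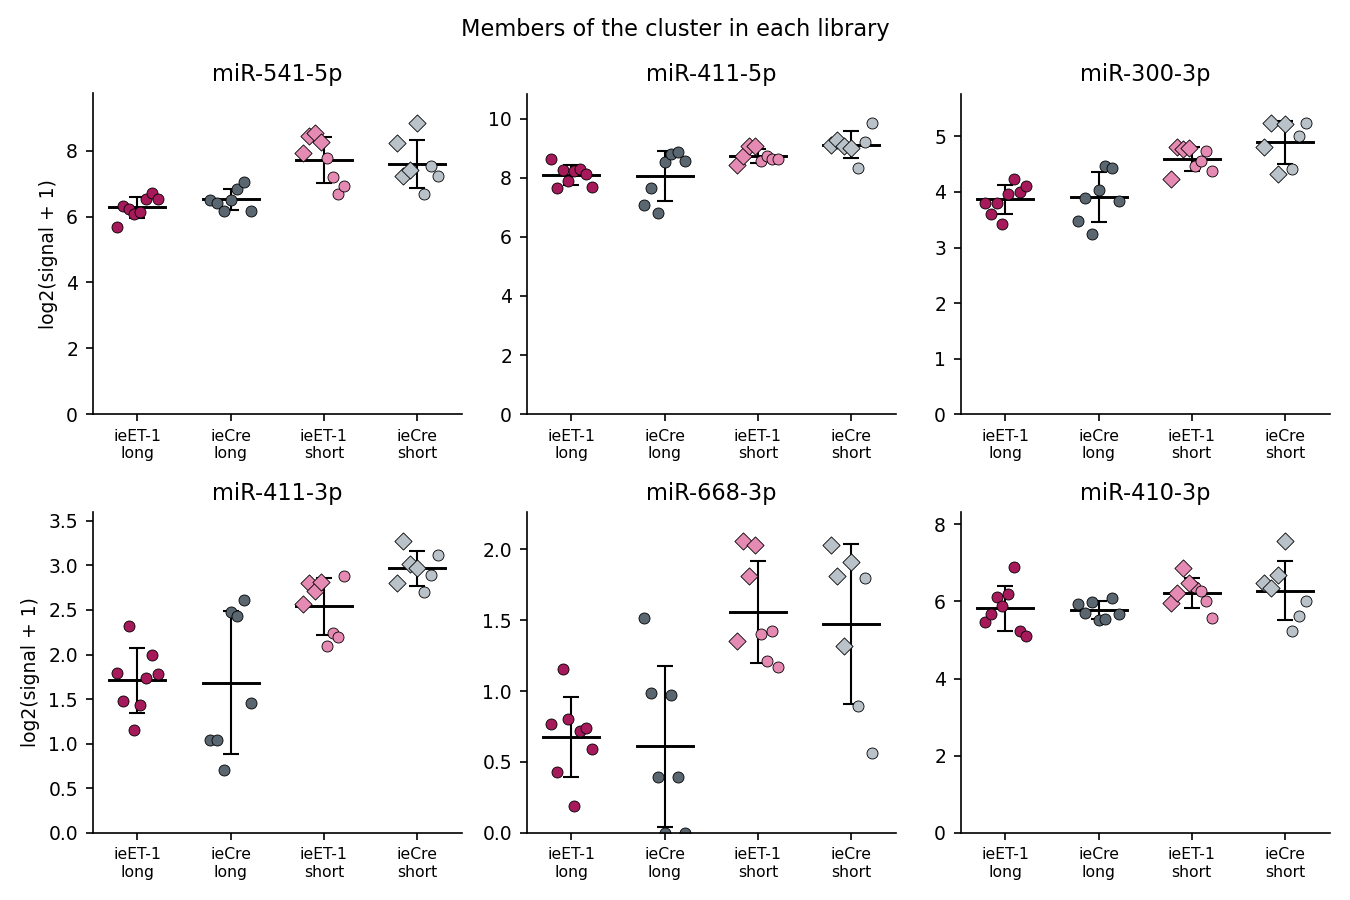
log2(deposited signal + 1) of 5 members called between long and short term and of miR-410-3p, which was not called, in each of 30 libraries. Points are libraries, diamonds are mice with label numbers below 1000, lines and bars are mean and SD; miR-300-3p at long term lies below short term without overlap in ieET-1 (highest 17.7 against lowest 17.9 in signal), while miR-410-3p overlaps.

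The members within Mirg included other arms that passed. Of these, miR-668-3p and miR-154-5p passed the filter on low signal only through short-term libraries, so the filter leaned towards their being lower at long term. With no filter, the adjusted p (limma) was 0.0467 for miR-668-3p in each genotype and 0.0187 for miR-154-5p in ieCre. miR-668-3p, from an exonic part of Mirg, had 0.141, 0.657 and 1.23 in ieET-1 long-term libraries against 1.25, 1.66 and 3.16 in ieET-1 short-term libraries, without overlap. In ieCre it had 0, 0.315 and 1.86 at long term against 0.48, 2.48 and 3.09 at short term. Its log2 change was -0.88 ± 0.23 (adjusted p = 0.0221) in ieET-1 and -0.86 ± 0.24 (adjusted p = 0.0210) in ieCre, where its adjusted p was 0.0599 in edgeR. miR-154-5p, from an intron of Mirg, had 0.266, 0.835 and 1.69 in ieCre long-term libraries against 1.86, 2.18 and 7.71 in ieCre short-term libraries, without overlap, and changed by -1.04 ± 0.24 (adjusted p = 0.0108). In ieET-1 it had 0, 1.07 and 2.15 at long term against 0.984, 1.59 and 2.13 at short term and was not called. miR-485-3p, of a miRNA known in rat neurons to act on synapses, was lower averaged over genotypes at -0.63 ± 0.18 (adjusted p = 0.0123). It had 0, 1.05 and 2.26 in ieET-1 long-term libraries against 0.671, 1.58 and 3.97 in ieET-1 short-term libraries, and 0.491, 0.94 and 2.13 in ieCre long-term libraries against 0.9, 2.79 and 4.51 in ieCre short-term libraries. Within numbers of 8000 or above, miR-668-3p changed by -0.63 (adjusted p = 0.424) in ieET-1 and -0.48 (adjusted p = 0.310) in ieCre, miR-154-5p by -0.86 (adjusted p = 0.0669) in ieCre and miR-485-3p by -0.24 averaged (adjusted p = 0.449).

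Outside Mirg, miR-329-5p and miR-667-3p also passed the filter on low signal only through short-term libraries. With no filter, miR-329-5p had an adjusted p (limma) of 0.0328 in ieCre, and miR-667-3p was not called. The signal of miR-329-5p was 0, 0.687 and 1.73 in ieCre long-term libraries against 1.02, 1.96 and 3.81 in ieCre short-term libraries. It changed by -0.82 ± 0.22 (adjusted p = 0.0160, limma) in ieCre, while in edgeR its adjusted p there was 0.0903 and within numbers of 8000 or above its change was -0.64 (adjusted p = 0.177, limma). In ieET-1 it had 0.308, 0.981 and 1.72 at long term against 1.34, 1.87 and 2.3 at short term, with a change of -0.52 ± 0.20 (adjusted p = 0.134). miR-667-3p was lower averaged over genotypes at -0.62 ± 0.20 (adjusted p = 0.0250), with 0, 0.512 and 0.776 in ieET-1 long-term libraries against 0, 1.74 and 3.86 in ieET-1 short-term libraries, and 0, 0.573 and 1.4 in ieCre long-term libraries against 0.368, 1.44 and 2.75 in ieCre short-term libraries. Its high short-term values were those of mice numbered below 1000, at 1.91 to 3.86 in ieET-1 against 0.00 to 1.57 in short-term mice numbered 8000 or above, and within those numbers its averaged change was -0.06 (adjusted p = 0.868), while without the near-identical pair its adjusted p was 0.0739. The signals of miR-154-5p, miR-329-5p, miR-485-3p, miR-667-3p and miR-668-3p stood for few reads, since a signal of 1 was 2.08 to 56 reads, depending on the library.

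Other abundant members were not called. miR-410-3p had 33.2, 54.3 and 118 in ieET-1 long-term libraries against 46.2, 74.3 and 116 in ieET-1 short-term libraries, and 44.9, 51.3 and 67 in ieCre long-term libraries against 36.4, 81 and 188 in ieCre short-term libraries. The groups overlapped at each genotype. miR-409-3p had log2 changes of -0.69 ± 0.35 in ieET-1 and -0.10 ± 0.38 in ieCre, and miR-299a-3p and miR-299b-3p were also within the spread of the libraries. miR-409-5p, the minor arm of Mir409, had the single positive estimate in ieCre, 0.67 ± 0.59, which did not pass. miR-134-5p, of a miRNA known in rat neurons to limit the size of dendritic spines, had a mean of 3.48 and was not called.

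Label number went with opposite differences in miR-541-5p and miR-379-5p at short term. miR-379-5p, named for this after its values were seen, had 6.96 to 27.6 in ieET-1 short-term mice numbered below 1000 and 37.2 to 53.6 in those numbered 8000 or above, without overlap, and in ieCre 10.3 to 55.4 below 1000 and 25.4 to 107 at 8000 or above. Its long-term signal was 6.47 to 38.1 in ieET-1 and 12.0 to 35.7 in ieCre. Over all numbers, its averaged change between long and short term was -0.66 ± 0.32 (adjusted p = 0.142, limma). Within numbers of 8000 or above it was -1.48 (adjusted p = 0.00635), where limma called 5 of 27 members and 7.06% of all arms lower. Within those numbers 2 members were called in ieCre, miR-300-3p and miR-411-3p, and 0 in ieET-1, where 6 had an unadjusted p under 0.05. The other 4 called in the average were miR-300-3p, miR-411-3p, miR-411-5p and miR-541-5p. A fit over all 30 libraries with 3 ranges of number (below 1000, 8000s and 9000s) as a term called 4 members lower in ieET-1 (4.24% of all arms lower), 6 in ieCre (11.3%) and 9 averaged (15.3%). The members' medians were -0.31, -0.32 and -0.32 in that order, against -0.02, -0.01 and -0.01 for all arms. miR-379-5p was called in each, at -1.65 ± 0.38 (adjusted p = 0.00976) in ieET-1 and -1.48 ± 0.41 (adjusted p = 0.0118) in ieCre. In that fit miR-668-3p did not pass in either genotype, at -0.56 (adjusted p = 0.109) in ieET-1 and -0.50 (adjusted p = 0.158) in ieCre, nor did miR-541-5p in ieCre, at -0.57 (adjusted p = 0.0990). miR-485-3p and miR-667-3p did not pass averaged, at adjusted p of 0.366 and 0.812. The labels do not say what the number stands for, and its part in the results was not tested beyond these values.

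Leaving out ieET-1 short-term 258 and ieCre short-term 8 left 6 members called in ieCre, 1 in ieET-1 and 9 averaged, where limma called 5.65%, 1.41% and 10.7% of all 354 arms lower. In ieET-1 it was miR-541-5p that passed (adjusted p = 0.00550), while miR-300-3p and miR-668-3p each had an adjusted p of 0.0597 and miR-411-3p of 0.0812. Leaving out ieET-1 short-term 258 alone also left 1 call in ieET-1, and leaving out ieET-1 long-term 8150 or 8151 left 2. The share of all arms called in these fits is not given. With the libraries under 8000000 reads left out, a choice made after the data were seen, 0 members were called by limma in ieCre, 0 in ieET-1 and 9 averaged over genotypes, where 0%, 0% and 5.08% of all arms were lower. At an unadjusted p under 0.05 there were 12 members in ieCre and 9 in ieET-1, and the members' medians were -0.58 in ieCre, -0.43 in ieET-1 and -0.46 averaged, against -0.06, -0.06 and -0.10 for all arms.

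The nearest comparison is the proximal miRNA group of the same imprinted region, 29 arms that include miR-127, miR-433 and miR-136 near Rtl1 and miR-341 and miR-370 near Meg3 and Rian. Of 14 tested, 5 were lower in ieCre, 3 in ieET-1 and 9 averaged over genotypes, and 0 were higher, with median log2 changes of -0.80, -0.65 and -0.67. Of all arms tested, limma called 5.65%, 3.95% and 13.6% lower in that order. Reads of the distal cluster per 100 proximal reads were 9.18 to 33.0 in ieET-1 long-term and 15.9 to 27.1 in ieCre long-term libraries, and 9.91 to 28.6 in ieET-1 short-term and 13.2 to 31.5 in ieCre short-term libraries, so the groups overlapped. When each library was scaled to its proximal reads, the members' median change was -0.10 in ieCre and -0.04 in ieET-1, against 0.54 and 0.50 for all arms tested, and 1 member in ieCre, miR-411-3p, and 0 in ieET-1 were called. With this scaling 2 of all 354 arms were lower and 104 higher in ieCre, and 1 was lower and 75 higher in ieET-1. The 8 arms from other imprinted loci had a summed signal of 6.08 to 18.7 in ieET-1 long-term and 7.25 to 16.2 in ieCre long-term libraries, against 9.06 to 18.2 in ieET-1 short-term and 9.05 to 20.3 in ieCre short-term libraries. Of 3 of these arms tested with limma, 1 was lower at long term, miR-298-5p, which lies near Gnas and is named here after its values were seen, at -0.72 ± 0.22 (adjusted p = 0.0481) in ieET-1 and -0.58 ± 0.16 (adjusted p = 0.0108) averaged. It did not pass in ieCre, at -0.44 ± 0.24 (adjusted p = 0.220).

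Scaling changed the size of the fall and the number of calls. With each library divided by its total miRNA reads instead of the authors' size, the median over all arms tested moved to -0.93 in ieCre, -0.47 in ieET-1 and -0.67 averaged. The members' medians were -1.27, -0.71 and -0.96, and 23, 4 and 26 of 27 were lower, where 60.2%, 5.08% and 62.7% of all arms were lower. Marker miRNAs of other cells moved between the times as well. Of 9 epithelial marker arms tested, 2 were higher averaged over genotypes, of 6 neural ones 2 were higher and of 5 fibroblast-associated ones 2 were lower, where 8.47% of all arms were higher and 13.6% lower. The summed epithelial signal was 499 to 11095 in ieET-1 long-term libraries against 338 to 847 in ieET-1 short-term libraries, and 658 to 1385 in ieCre long-term libraries against 344 to 1212 in ieCre short-term libraries. The summed neural signal was 112 to 692 in ieET-1 long-term libraries against 104 to 437 in ieET-1 short-term libraries, and 209 to 583 in ieCre long-term libraries against 122 to 316 in ieCre short-term libraries. The fibroblast-associated sum was 1609 to 2800 in ieET-1 long-term libraries against 1999 to 3024 in ieET-1 short-term libraries, and 1099 to 4389 in ieCre long-term libraries against 2174 to 4776 in ieCre short-term libraries. Of 4 smooth muscle arms 1 was higher, and their sum was 195795 to 1222889 in ieET-1 long-term libraries against 210992 to 700247 in ieET-1 short-term libraries, and 385949 to 2254716 in ieCre long-term libraries against 195656 to 397684 in ieCre short-term libraries. Of 6 erythroid arms 1 was lower, with a median log2 change of -0.44. Of 4 pancreas arms 0 were called, though all 4 had positive estimates with a median of 0.50, and their sum was 52.6 to 1084 in ieET-1 long-term libraries against 18.7 to 429 in ieET-1 short-term libraries, and 14.3 to 4178 in ieCre long-term libraries against 26.8 to 164 in ieCre short-term libraries. Of 5 endothelial, 7 leukocyte, 6 adipose and 3 striated muscle arms 0 were called by limma, with 0, 0, 2 and 0 at an unadjusted p under 0.05. The part of these in the cluster's change was not tested.

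Members were weakly correlated with each other. After removal of the group means, the median Pearson r between 300 pairs of tested members over 30 libraries was 0.15, against 0.03 for 62481 pairs of all arms tested. Mir299b was left out of the member pairs. These libraries share their scaling and depth, and the values are a description. By position, the median r was 0.13 for 65 pairs of different precursors within 5 kb, 0.16 for 128 pairs 5 to 20 kb apart and 0.16 for 101 pairs over 20 kb apart. The 6 pairs of arms of 1 precursor had a median of 0.14. Among the 7 most abundant arms, miR-381-3p and miR-410-3p had r = 0.79 at 16.9 kb, and miR-411-5p and miR-300-3p had r = 0.72 at 14.1 kb. miR-300-3p and miR-381-3p, 2.51 kb apart, had r = 0.14, and miR-379-5p and miR-541-5p had r = -0.53. With label number range removed as well, the median of member pairs was 0.08, against 0.03 for all pairs. Without the near-identical pair of libraries, the median of member pairs was 0.15. The 21 pairs among the 7 most abundant arms had a median of 0.19, and of 0.29 with label number range removed. For all pairs of arms with a mean of at least 10, these medians were 0.03 and 0.04.

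**Figure D5:**
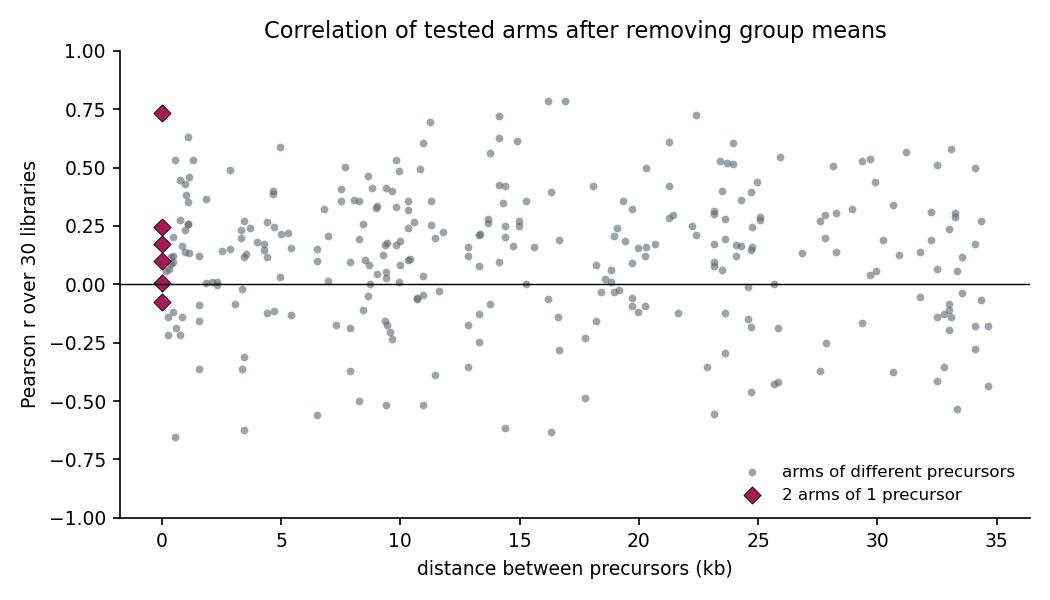
Pearson r of log2(signal + 1) minus group means over 30 libraries for 300 pairs of tested members, against the distance between their precursors in kb. Grey points are arms of different precursors and diamonds are pairs of arms of 1 precursor; r spreads on both sides of 0 at every distance, with a median of 0.15.

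The arms called between the times, averaged over genotypes, were also spread along the locus. Of 8 arms tested in the first 6 kb from Mir379, 4 were called, of 6 between there and Mirg 2, and of 11 within Mirg 4, where limma called 13.6% of all arms lower. Of these 10, miR-329-5p, miR-667-3p, miR-668-3p and miR-154-5p had passed the filter on low signal only through short-term libraries. The copy Mir299b was left out of these counts because its reads are those of Mir299a.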

How the data were processed

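Small RNA libraries of mouse mesenteric artery were made with a TruSeq small RNA kit from 1 µg of RNA and sequenced on a HiSeq-2500, per the labels' protocols. Tools listed in the submitters' processing notes, with no role stated, were edgeR 3.6.8, STAR 2.3.1, R 3.2.3, FastQC and bcl2fastq 1.8.4. No source used here names the build of the alignment. The deposited values are a normalized signal per mature miRNA arm, counts that the authors divided by a library size of their own. In each of the 30 columns all values were whole multiples of what 1 read is worth (100% within 0.001), so whole reads were recovered. Of 32 labelled samples, 30 had a column, and 2 were not analysed here.

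Log2(signal + 1) of arms with a signal of at least 1 in at least 8 libraries was fitted with limma 3.58.1 (R 4.3.3, trend, 4 group means in a single fit, Benjamini-Hochberg threshold 0.05), with 7 comparisons. The count test on the recovered reads, edgeR 4.0.16 (quasi-likelihood), called 5 members in ieCre, 4 in ieET-1 and 11 averaged over genotypes between long and short term, and 0 between genotypes. DESeq2 1.42.0 called 7, 4, 12 and 0. Between long and short term, edgeR called 3.95%, 4.52% and 12.1% of all arms lower in that order, and DESeq2 7.34%, 5.08% and 14.4%. The fit was tested on simulated data, with changes between long and short term in ieCre. Of the changed arms tested, it called 12.8% at 1.5-fold, 49.4% at 2-fold and 84.0% at 4-fold in the right direction. Of its calls, 4% were false. A lack of a call thus does not show a lack of change. Other steps used Python 3.11.15, pandas 2.3.3 and numpy 2.4.6. Depth was 1820166 to 35531345 reads, and a signal of 1 was 2.08 to 56.0 reads. The libraries carry separate animal numbers, and p-values measure the spread between them, with both libraries of the near-identical pair counted as separate mice.

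The members and lists were chosen with earlier results of these data known. Named were members called in any comparison, the 4 with the smallest p where fewer than 4 were called, the 10 with the highest mean and the 3 precursors with the most unequal arms. Alternatives changed the scaling, pseudocount, filter, test, depth, label number range and libraries. Precursor positions are from GENCODE M21 (GRCm38), and mature sequences are from RefSeq.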

Additional observations from a re-analysis of the deposited data

Results flagged for a closer look

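Of 92 groups of values (members by group, and summary measures by group), 4 held a library far from the others, and chance alone flags about 1 in 20 groups. In ieCre short-term library 10, miR-154-5p had a signal of 7.71, where the next highest ieCre short-term library had 3.03. In the same library miR-379-3p had 7.31, with 3.77 the next highest. In ieCre long-term library 9491, miR-409-3p had 2.45, with 12.6 the next lowest. In ieET-1 long-term library 8134, miR-411-5p made up 66.5% of the cluster's reads, with 54.0% the next highest.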

How the results depend on the processing

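No paired analysis was possible because the animal numbers do not repeat across groups. Between genotypes, 0 members were called in the 4 comparisons under every alternative run, and leaving out each library in turn gave 0 to 0. Between long and short term, leaving out each library gave 6 to 9 members called in ieCre, 1 to 4 in ieET-1 and 10 to 13 averaged over genotypes. In ieCre, the main count of 7 became 3 with a filter at a signal of 10 (7 members tested), 23 with scaling to all miRNA reads (60.2% of all arms lower) and 4 with only the groups compared in the fit. It became 2 within numbers of 8000 or above (5.08% of all arms lower) and 11 within those numbers with scaling to all miRNA reads (31.1%). It was 1 with scaling to proximal reads (0.565%) and 0 without libraries under 8000000 reads (0%). In ieET-1, the main count of 4 became 2 with the filter at 10, 10 with array weights, 1 with reads thinned to 1820166 per library and 2 without libraries under 5000000 reads. It became 1 without the near-identical pair (1.41% of all arms lower, and 1 member in edgeR also). It was 0 within numbers of 8000 or above (0%, also with scaling to all miRNA reads), with scaling to proximal reads (0.282%) or without libraries under 8000000 reads (0%). Averaged over genotypes, the main count of 10 became 3 with the filter at 10, 26 with scaling to all miRNA reads (62.7% of all arms lower), 5 within numbers of 8000 or above (7.06%) and 2 with scaling to proximal reads (0.847%). For the other alternatives in these counts, and for leaving out each library, the share of all arms is not given. Those counts therefore cannot be set against the whole table. The cause of the changed counts was not tested, beyond the fewer arms or libraries in some of these fits. Scaling to proximal reads, scaling to all miRNA reads within numbers of 8000 or above, edgeR without the pair and the 8000000 limit were chosen after seeing the data, as were the number ranges for the cluster share and for the correlations.

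The arm ratio test with no filter gave 8 calls over the comparisons within a genotype or time (5 in ieCre and 3 in ieET-1 between the times). With the filter it gave 0, and 0 to 0 on leaving out each library, which was done with the filter only. The cluster share without miR-143-3p and miR-10b-5p in the total was 0.181% in ieET-1 and 0.149% in ieCre at long term, and 0.308% in ieET-1 and 0.388% in ieCre at short term. On leaving out each library, the share was 0.0451 to 0.0505%, 0.0385 to 0.0498%, 0.108 to 0.130% and 0.143 to 0.161%, in the same order of groups. The median r of member pairs was 0.46 with scaling to all miRNA reads, where it was 0.39 for all pairs. Uncalled genotype differences changed sign for miR-300-3p averaged over times with thinned reads (0.030), for miR-411-3p averaged over times with number range as a term (0.026), and for miR-409-5p between times within numbers of 8000 or above scaled to all miRNA reads (0.036). Depth limits the 44 arms with a mean signal below 1, for which a lack of a call does not show a lack of change.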

Other observations

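With no filter on low signal, the members called in addition between long and short term, averaged over genotypes, were miR-376a-5p, miR-376c-3p, miR-377-5p, miR-485-5p, miR-487b-3p and miR-539-5p, all lower at long term. Arms with a read per library numbered 40.0 ± 9.70 in ieET-1 long-term and 37.6 ± 8.32 in ieCre long-term libraries, and 52.6 ± 4.87 in ieET-1 short-term and 47.7 ± 8.65 in ieCre short-term libraries (SD, n = 8, 7, 8 and 7). With every library thinned to 1820166 reads, the expected numbers were 27.3 ± 5.48, 25.2 ± 6.02, 36.6 ± 4.98 and 38.0 ± 4.49 in the same order.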
